A study of Mus musculus with 12 samples.

Results

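The opioid peptides and their receptors are encoded in these data by 8 genes. The precursors are proenkephalin (Penk), prodynorphin (Pdyn), proopiomelanocortin (Pomc) and prepronociceptin (Pnoc), and the receptors are mu (Oprm1), delta (Oprd1), kappa (Oprk1) and nociceptin (Oprl1). They were chosen by symbol as the genes for these precursors and receptors. Each symbol matched 1 of the 48795 genes in the count table, and all 8 were among the 17725 genes that passed the expression filter.

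RNA was sequenced from the piriform cortex, which receives odour input straight from the olfactory bulb, of 6 Q140 mice and 6 wild types (WT). Q140 mice were heterozygous for a knock-in allele of Htt, the Huntington's disease gene, and so kept 1 normal allele, and WT mice had both. The knock-in replaces part of the gene at its own locus, so the allele is not driven by a promoter chosen for 1 cell type. Each genotype had 3 females and 3 males, all on the C57BL/6 background, aged 12 months and prepared on plate 1, and animals are numbered 1 to 6 within a genotype.

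Opioid precursors are cut after pairs of basic residues by prohormone convertases, packed into dense-core vesicles and released as short peptides. Enkephalins act mainly at delta and mu receptors, dynorphins at kappa receptors, beta-endorphin from Pomc at mu receptors, and nociceptin at its own receptor. All 4 receptors couple to inhibitory G proteins, which reduce cyclic AMP, open inward-rectifier potassium channels and close calcium channels. In the neighbouring striatum, Penk and Pdyn mark the projection neurons of the indirect and the direct pathway, and the early loss of enkephalin from striatal neurons is a classic feature of Huntington's disease.

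The coding sequences show what each precursor can give rise to. The opioid core codons of the counted precursor transcripts, and for Pnoc the start of nociceptin, are printed here. A search of the longest coding sequence of each precursor in GENCODE M21 found 12 cores. The lines give the codons of each core in capitals and 2 flanking codons on each side in lower case, 5′ to 3′ on the coding strand, with GRCm38 coordinates. The capitals spell tyrosine, glycine, glycine, phenylalanine and then methionine (Met-enkephalin) or leucine (Leu-enkephalin), or in Pnoc the phenylalanine-led start of nociceptin.
Penk copy 1, Met-enkephalin, chr4:4134328-4134354, minus strand: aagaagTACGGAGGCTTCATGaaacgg
Penk copy 2, Met-enkephalin, chr4:4134307-4134333, minus strand: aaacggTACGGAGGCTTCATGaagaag
Penk copy 3, Met-enkephalin, chr4:4134220-4134246, minus strand: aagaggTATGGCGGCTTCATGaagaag
Penk copy 4, Met-enkephalin, chr4:4134067-4134093, minus strand: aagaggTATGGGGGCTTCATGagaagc
Penk copy 5, Met-enkephalin, chr4:4133995-4134021, minus strand: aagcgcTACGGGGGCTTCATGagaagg
Penk copy 6, Leu-enkephalin, chr4:4133935-4133961, minus strand: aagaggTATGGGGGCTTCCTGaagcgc
Penk copy 7, Met-enkephalin, chr4:4133842-4133868, minus strand: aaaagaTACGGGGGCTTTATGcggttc
Pdyn copy 1, Leu-enkephalin, chr2:129688232-129688258, minus strand: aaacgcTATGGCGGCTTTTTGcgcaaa
Pdyn copy 2, Leu-enkephalin, chr2:129688124-129688150, minus strand: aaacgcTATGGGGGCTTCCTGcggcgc
Pdyn copy 3, Leu-enkephalin, chr2:129688067-129688093, minus strand: aagcgcTATGGTGGTTTCCTGcggcgt
Pomc copy 1, Met-enkephalin, chr12:3960367-3960393, plus strand: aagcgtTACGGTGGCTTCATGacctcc
Pnoc copy 1, nociceptin start, chr14:65404875-65404898, minus strand: aaaaggTTTGGGGGCTTCaccggg

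Penk, with 268 codons including the stop, holds 6 Met-enkephalin cores and 1 Leu-enkephalin core, so 1 transcript can give several enkephalins. Pdyn has 248 codons and 3 Leu-enkephalin cores, which begin the neoendorphins and dynorphins. Pomc has 235 codons with 1 Met-enkephalin core, the start of beta-endorphin, and Pnoc has 212 codons with 1 nociceptin start. All 12 cores follow a pair of codons for lysine or arginine, the cutting site of the convertases, and 8 have such a pair on both sides.

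**Figure D1:**
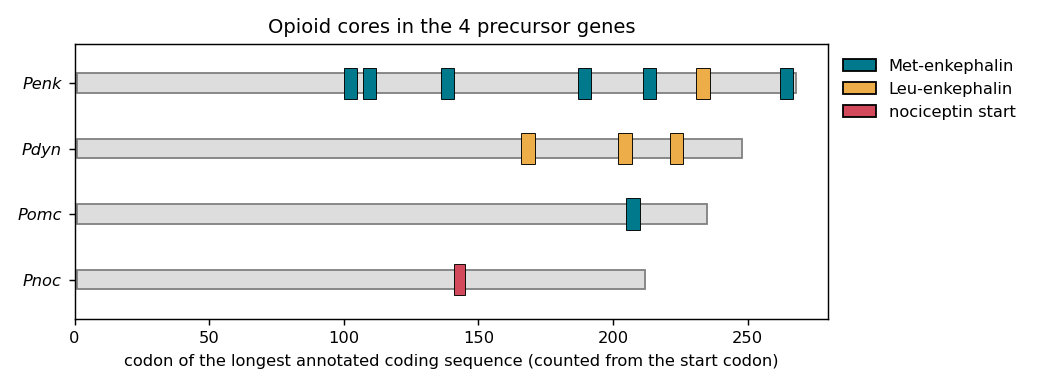
Positions of the opioid cores along the longest annotated coding sequence of each precursor, in codons from the start codon. Penk carries 7 cores between codons 100 and 262, Pdyn 3 cores, and Pomc and Pnoc 1 each.

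Libraries held 19587208 to 35198602 reads assigned to genes in Q140 and 24068582 to 33191541 in WT. Htt, the targeted gene, had 143 to 164 CPM (reads scaled to a common library size, with TMM factors) in Q140 and 180 to 204 CPM in WT, without overlap between the genotypes (log2 fold change -0.37, SE 0.0428, edgeR quasi-likelihood adjusted p = 0.000203). Markers of cortical excitatory neurons summed to 5158 to 5658 CPM in Q140 and 6311 to 7801 CPM in WT, with none of the 14 at 0. All 22 matched striatal projection neuron markers were also detected, and they varied widely between animals, with summed levels of 1165 to 1924 CPM in Q140 and 831 to 2944 CPM in WT. Wells of plate column 8 held 4 Q140 and 3 WT animals, and column 9 held 2 Q140 and 3 WT animals. The prefixes of the animal names, whose meaning the labels do not state, also fell unevenly: RFckQ named 1 Q140 and 4 WT animals, RFQ 3 Q140 animals and 1 WT, FMQ 1 WT animal, and 2 Q140 animals had no prefix.

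Transcript levels of the opioid genes were first compared per length, with the deposited FPKM. Penk had by far the highest level, at 83.7 ± 22.0 FPKM in Q140 and 163 ± 60.1 FPKM in WT (SD, n = 6 each). Oprl1 came next, at 8.26 ± 0.446 FPKM in Q140 and 7.58 ± 0.541 FPKM in WT. The mean of Penk was 10.1 times that of Oprl1 in Q140 and 21.5 times in WT, and in each genotype the lowest Penk value lay above the highest Oprl1 value.

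Below Oprl1 stood Pdyn, at 3.00 ± 0.952 FPKM in Q140 and 5.81 ± 2.47 FPKM in WT. Oprd1 followed at 2.41 ± 0.470 FPKM in Q140 and 3.02 ± 0.655 FPKM in WT, and Pnoc at 2.26 ± 0.218 FPKM in Q140 and 2.33 ± 0.205 FPKM in WT. Pdyn overlapped with Oprd1 and Oprd1 with Pnoc in both genotypes, while Oprl1 and Pdyn overlapped in WT but not in Q140. Oprk1 and Pomc both lay under 1 FPKM on average and overlapped each other. Oprk1 had 0.546 ± 0.0886 FPKM in Q140 and 0.942 ± 0.553 FPKM in WT, and Pomc had 0.682 ± 0.121 FPKM in Q140 and 0.755 ± 0.194 FPKM in WT. Oprm1 was the lowest in both genotypes, at 0.0764 ± 0.0277 FPKM in Q140 and 0.131 ± 0.0305 FPKM in WT, below all animals' levels of the gene next to it. CPM divided by length gave the same order in each genotype.

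**Figure D2:**
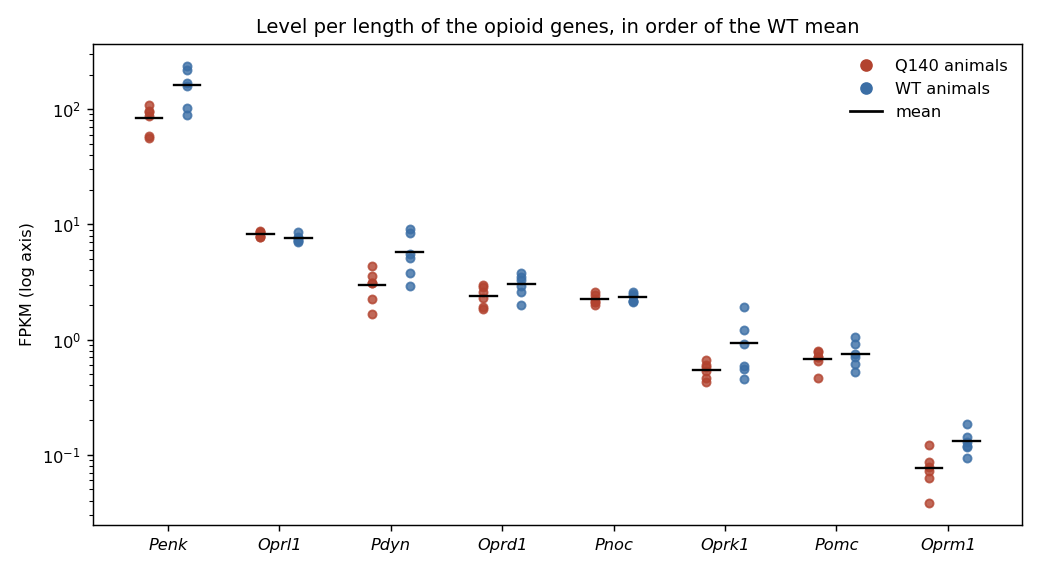
FPKM of each opioid gene on a log axis, with 1 point per animal (Q140 left of WT within a gene) and a line at the mean of 6 animals. Penk stands above the other 7 genes in every animal and Oprm1 below them. Only the means of Oprk1 and Pomc change places between the genotypes. Oprk1 was above Pomc in 2 of the 6 WT animals, and Pomc above Oprk1 in 5 of the 6 Q140 animals.

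Penk, Pdyn and Oprm1 were lower in Q140 samples than in WT in the edgeR fit of all animals. Penk and Pdyn were lower to about the same proportion of the WT level, and both varied with the striatal markers described below. Over alternative fits, Penk passed in 27 of 30, Pdyn in 21 of 30 and Oprm1, which had few reads, in 11 of 29. None of them passed with the prefix of the animal name as a covariate. Oprk1 and Oprd1 had lower means in Q140 but did not pass the test, and the means of Pomc, Pnoc and Oprl1 differed between the genotypes by at most 12.7%. With the edgeR quasi-likelihood test over all genes, sex as a covariate and an adjusted p under 0.05 as the threshold, 3 of the 8 opioid genes passed, all lower in Q140, against 11.2% of all tested genes in either direction, 6.69% lower and 4.5% higher. None of the 8 had genotypes without overlap in CPM, against 4.59% of all tested genes. At an unadjusted p under 0.05 there were 5 opioid genes, against 26.7% of all tested genes. The signs of the 8 fold changes were 7 negative and 1 positive. Their median log2 fold change was -0.58, against 0.0045 over all tested genes.

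Penk (ENSMUSG00000045573, chromosome 4, 4133531 to 4138819, minus strand, GRCm38), the enkephalin precursor, ranged from 88.2 to 180 CPM around a median of 148 CPM in Q140, and from 150 to 391 CPM around a median of 273 CPM in WT. Q140 1, 5 and 6 were below every WT animal, and the other Q140 animals overlapped with WT 6 at 150 CPM and WT 4 at 169 CPM. All 6 Q140 animals were below the WT mean, and 4 of the 6 WT animals were above every Q140 animal. The means were 135 ± 36.7 CPM in Q140 and 270 ± 98.5 CPM in WT (SD, n = 6 each), 50.1% lower in Q140. The log2 fold change was -1.02 (SE 0.236, 95% interval -1.53 to -0.52) with an edgeR adjusted p of 0.0141. Penk shares 233 exon bases with A830012C17Rik on the opposite strand, and no source used here gives the strand setting of the counting, so the value is uncertain. The partner itself was assigned 18 reads over the Q140 libraries and 25 over the WT libraries, against 25617 and 46888 reads of Penk.

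Pdyn (ENSMUSG00000027400, chromosome 2, 129686565 to 129699844, minus strand), the dynorphin precursor, ranged from 4.67 to 12.6 CPM with a median of 8.73 CPM in Q140, and from 8.65 to 26.4 CPM with a median of 15.8 CPM in WT. As for Penk, WT 4 and WT 6 were the 2 WT animals that lay within the Q140 range, and WT 2 and WT 5 were the highest. The means were 8.55 ± 2.82 CPM in Q140 and 17.03 ± 7.15 CPM in WT (SD, n = 6 each), 49.8% lower in Q140. The log2 fold change was -1.02 (SE 0.267, 95% interval -1.59 to -0.44, edgeR adjusted p = 0.0269). This call was near the threshold: it was lost when Q140 3, 4 or 6 or WT 2 was left out (adjusted p = 0.0513, 0.0510, 0.0547 and 0.0710), while the fold change kept its sign in all 30 alternatives.

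With the prefix of the animal name as a covariate, on the 4 Q140 and 5 WT animals whose prefix occurred in both genotypes, no opioid gene passed edgeR, and 81 of all tested genes did. Penk was then at -0.82 (adjusted p = 0.167), Pdyn at -0.98 (adjusted p = 0.164), Oprm1 at -0.59 (adjusted p = 0.560) and the targeted gene Htt at -0.33 without passing. Of the pathway genes called and named below, only Rgs14 passed in that fit. The fit used fewer animals, and the part of the prefix in the results was not tested further.

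Pomc (ENSMUSG00000020660, chromosome 12, 3954951 to 3960642, plus strand), the precursor of beta-endorphin and the melanocortins, was barely detected. It had 14 to 27 reads per animal in Q140 and 14 to 35 in WT. Levels were 0.465 to 0.777 CPM with a median of 0.703 CPM in Q140, and 0.529 to 1.07 CPM with a median of 0.740 CPM in WT. The genotypes overlapped over most of their range. The log2 fold change was -0.20 (95% interval -0.63 to 0.24, edgeR adjusted p = 0.580).

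Pnoc (ENSMUSG00000045731, chromosome 14, 65400673 to 65425472, minus strand), the nociceptin precursor, was the steadiest of the 8 genes after Oprl1. It had 4.33 to 5.37 CPM with a median of 4.67 CPM in Q140, and 4.61 to 5.70 CPM with a median of 5.06 CPM in WT. The ranges overlapped widely, and the coefficient of variation was 9.09% in Q140 and 9.37% in WT. The log2 fold change was -0.09, with a 95% interval of -0.29 to 0.10 (edgeR adjusted p = 0.560).

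Among the receptors, Oprm1 (ENSMUSG00000000766, chromosome 10, 6758506 to 7038198, plus strand), the mu receptor at which morphine acts, passed the test. It rested on few reads, 6 to 33 per animal in Q140 and 18 to 45 in WT. Levels were 0.298 to 0.948 CPM with a median of 0.601 CPM in Q140, and 0.753 to 1.52 CPM with a median of 1.01 CPM in WT. Of the 6 Q140 animals, 5 lay below every WT animal, and Q140 5 lay within the WT range. The means were 0.605 ± 0.217 CPM in Q140 and 1.07 ± 0.261 CPM in WT (SD, n = 6 each), and the log2 fold change was -0.78 (SE 0.232, 95% interval -1.28 to -0.28, edgeR adjusted p = 0.0446). The call held in 2 of the 12 fits that leave out 1 animal, those without Q140 5 or WT 4, and adjusted p-values over those fits ran from 0.0053 to 0.0980. In wells of plate column 8 alone it was at -0.84 (adjusted p = 0.0477), in column 9 alone at -0.36 (adjusted p = 0.891), and with plate column as a covariate at -0.73 (adjusted p = 0.0713). Oprm1 shares 96 exon bases with Ipcef1, on the opposite strand at 56.2 CPM in Q140 and 68.3 CPM in WT (log2 fold change -0.28, edgeR adjusted p = 0.112). The library kit was stranded, but the strand setting of the counting is not given. Whether reads of this far more abundant partner affected the Oprm1 count is therefore unknown, and the value of Oprm1 is uncertain.

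Oprk1 (ENSMUSG00000025905, chromosome 1, 5588466 to 5606131, plus strand), the kappa receptor for dynorphins, had 3.82 to 6.13 CPM with a median of 4.98 CPM in Q140, and 4.29 to 18.1 CPM with a median of 7.03 CPM in WT. WT 6 at 18.1 CPM, WT 1 at 11.1 CPM and WT 2 at 8.58 CPM were above every Q140 animal, and the other WT animals lay within the Q140 range. The mean was 44.0% lower in Q140, but the difference did not pass (log2 fold change -0.82, SE 0.290, 95% interval -1.44 to -0.20, edgeR adjusted p = 0.0862). WT 6 carried much of it: without that animal the log2 fold change was -0.49 (adjusted p = 0.196). The gene passed without WT 3 (-0.98, adjusted p = 0.0297), with no filter beyond 1 read (-0.81, adjusted p = 0.0212) and with the mean of striatal markers as a covariate (-0.74, adjusted p = 0.0484), though no longer when WT 6 was left out of that last fit as well (-0.41, adjusted p = 0.363). WT 6 and WT 1 were also the highest of the 12 animals in the mean of 7 claustrum and endopiriform markers, at 0.77 and 0.36 on the centred log2 scale, against -0.37 to 0.02 in Q140 and -0.44 to 0.77 over WT as a whole. The summed level of those markers was 235 to 320 CPM in Q140 and 230 to 575 CPM in WT, none was at 0, and their part in the result was not tested.

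Oprd1 (ENSMUSG00000050511, chromosome 4, 132110726 to 132144486, minus strand), the delta receptor for enkephalins, had 7.15 to 11.9 CPM with a median of 9.78 CPM in Q140, and 8.30 to 15.8 CPM with a median of 12.6 CPM in WT. All 6 Q140 animals were below the WT mean, 2 of them below every WT animal. The difference did not pass (log2 fold change -0.38, SE 0.140, 95% interval -0.68 to -0.08, edgeR adjusted p = 0.102), and it passed without WT 3, the lowest WT animal (-0.50, adjusted p = 0.00483).

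Oprl1 (ENSMUSG00000027584, chromosome 2, 181715016 to 181720985, plus strand), the nociceptin receptor, was the most abundant receptor and the 1 gene of the 8 with a positive fold change. It had 29.1 to 31.8 CPM with a median of 30.6 CPM in Q140, and 27.3 to 33.2 CPM with a median of 28.3 CPM in WT. The highest value belonged to WT 6, and the other WT animals were at 29.3 CPM or below. The log2 fold change was 0.07, with a 95% interval of -0.04 to 0.19 (edgeR adjusted p = 0.397), the narrowest interval of the 8 genes.

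**Figure D3:**
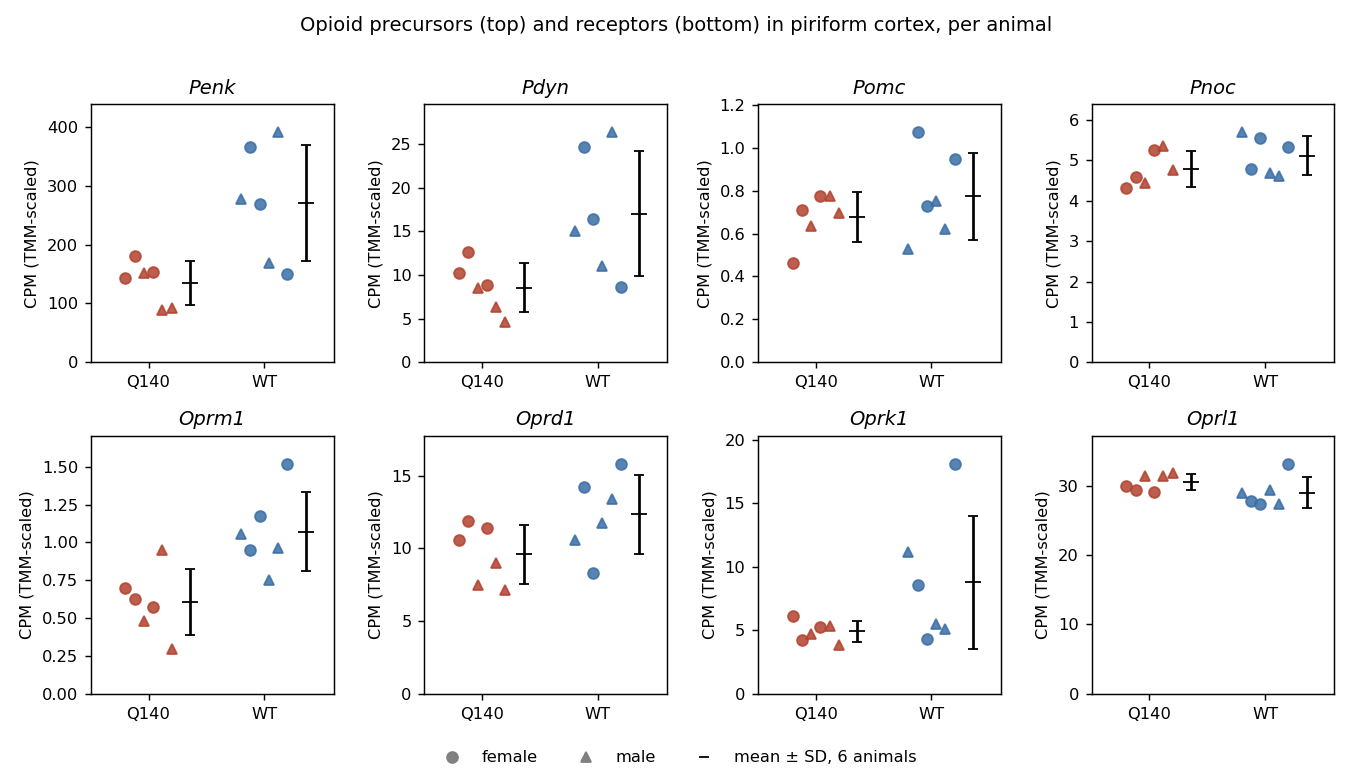
CPM of each opioid gene per animal, with Q140 left of WT, circles for females, triangles for males and bars for the mean ± SD of 6 animals. In both Penk and Pdyn, WT 2 and WT 5 are highest and WT 4 and WT 6 lie inside the Q140 range, while the order of the other animals differs. Oprl1 shows little difference between the genotypes.

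Within each sex, no opioid gene passed the adjusted threshold of edgeR with 3 animals against 3. In males 0 of the 8 genes passed, against 1.4% of all tested genes, and in females 0 passed, against 7.05%. In males DESeq2 called 2, Penk and Pdyn, and limma voom called 1, Penk, and neither called any in females. At an unadjusted p under 0.05 there were 3 opioid genes in males (16.6% of all tested genes) and 3 in females (23.7%). The genotypes did not overlap for 4 genes in males, against 20.2% of all tested genes, and for 1 gene in females, against 29.5%. In Q140, all males had the name prefix RFQ and no female did, so sex cannot be told apart from prefix there. Of the WT males, WT 4 had the prefix RFQ, and WT 1 and WT 5 had RFckQ. Males of the same genotype also shared a number in their names, 147 in WT 1 and WT 5 and 161 in Q140 3 and Q140 5. The comparisons within males took them as independent animals. Q140 females were all in plate column 8, while the males Q140 5 and Q140 6 were in column 9.

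In males the enkephalin and dynorphin precursors and the delta receptor were separated between the genotypes. Penk had 88.2, 92.2 and 152 CPM in Q140 males, against 169, 278 and 391 CPM in WT males (log2 fold change -1.33, edgeR adjusted p = 0.0656). Pdyn had 4.67, 6.29 and 8.57 CPM in Q140 males, against 11.0, 15.1 and 26.4 CPM in WT males (-1.42, edgeR adjusted p = 0.0802). Oprd1 had 7.15, 7.49 and 9.02 CPM in Q140 males, against 10.5, 11.8 and 13.4 CPM in WT males (-0.59, edgeR adjusted p = 0.153). All 3 genes had every Q140 male below every WT male. Oprl1 had the opposite arrangement, with 31.4 to 31.8 CPM in Q140 males and 27.3 to 29.3 CPM in WT males (0.15, edgeR adjusted p = 0.329). The mean of striatal markers, described below, was not even over these animals. On the centred log2 scale it was 0.19, -0.44 and -0.60 in Q140 males, and 0.20, -0.44 and 0.94 in WT males. In females it was 0.23, 0.47 and 0.19 in Q140, and 0.87, 0.17 and -1.78 in WT. Its part in the effects within and between sexes was not tested.

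In females the mu receptor was the 1 gene of the 8 without overlap, against 29.5% of all tested genes. It had 20 to 24 reads per animal in Q140 females and 31 to 45 in WT females. Oprm1 had 0.575, 0.626 and 0.697 CPM in Q140 females, against 0.950, 1.18 and 1.52 CPM in WT females (log2 fold change -0.93, edgeR adjusted p = 0.0980). Penk had 144, 153 and 180 CPM in Q140 females, against 150, 269 and 366 CPM in WT females (-0.72, edgeR adjusted p = 0.195), so that WT 6 lay among the Q140 females. Pdyn behaved alike, with 8.89, 10.2 and 12.6 CPM in Q140 females, against 8.65, 16.5 and 24.6 CPM in WT females (-0.65, edgeR adjusted p = 0.288). Oprk1 had 4.27 to 6.13 CPM in Q140 females and 4.29 to 18.1 CPM in WT females (-0.98, edgeR adjusted p = 0.166).

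Whether Q140 differed from WT by more in males than in females was tested as an interaction, and 0 of the 8 genes passed with edgeR, DESeq2 or limma voom, and with edgeR 0 had an unadjusted p under 0.05. Over all tested genes edgeR called 0 (0%), with 9.21% at an unadjusted p under 0.05. The male effect minus the female effect was -0.61 on the log2 scale for Penk (95% interval -1.59 to 0.36, edgeR adjusted p = 0.696) and -0.77 for Pdyn (-1.87 to 0.33, adjusted p = 0.662). For Pomc it was 0.65 (-0.17 to 1.47, adjusted p = 0.616), and for Oprd1 -0.41 (-0.98 to 0.17, adjusted p = 0.661). Intervals this wide leave differences between the sexes of more than a log2 unit inside them for Penk and Pdyn. Males and females, with genotype as a covariate, showed 0 of the 8 genes past the threshold with edgeR, DESeq2 or limma voom (with edgeR 0.654% of all tested genes passed, and 13.5% had an unadjusted p under 0.05). Oprd1 came closest and was the 1 opioid gene with an unadjusted p under 0.05 (males over females -0.30, edgeR adjusted p = 0.370). It had 7.89 ± 0.994 CPM in Q140 males and 11.3 ± 0.685 CPM in Q140 females, and 11.9 ± 1.43 CPM in WT males and 12.8 ± 3.96 CPM in WT females (SD, n = 3 each). Since sex and name prefix cannot be told apart in Q140, neither can their parts in these values and in the interaction.

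**Figure D4:**
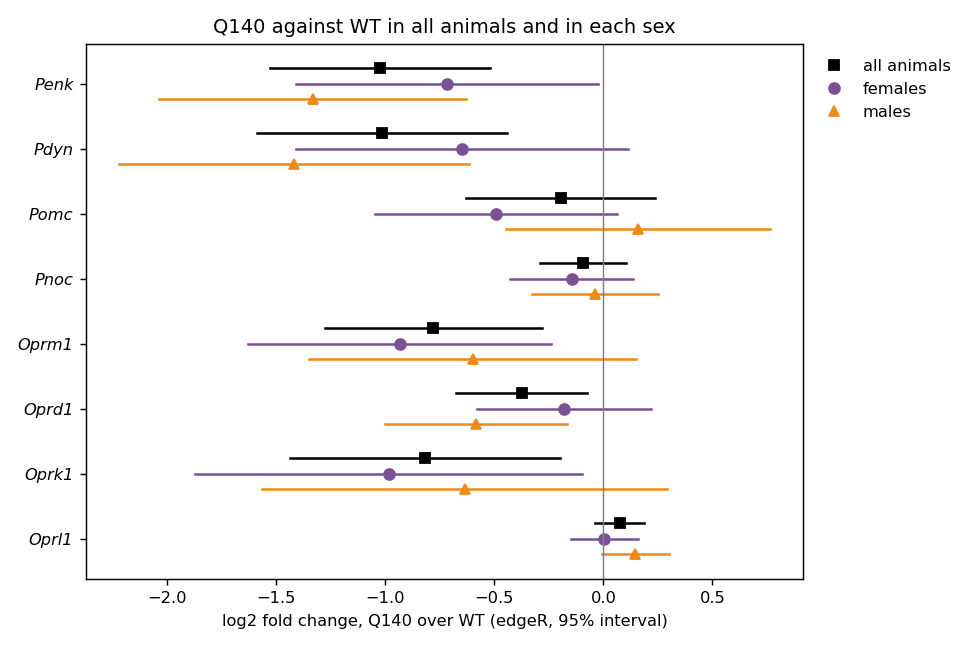
Log2 fold change of Q140 over WT for each opioid gene from edgeR, with 95% intervals, in all animals (squares), in females (circles) and in males (triangles). Penk, Pdyn, Oprm1, Oprd1 and Oprk1 have intervals below 0 in all animals, and the intervals of the sexes overlap for every gene.

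Penk and Pdyn varied together from animal to animal within each genotype. Over the 6 Q140 animals Pearson's r of their log2 CPM was 0.91 (exact permutation p = 0.0153, adjusted over 6 relations 0.0167) with a Spearman's rho of 0.77 (exact permutation p = 0.103, adjusted 0.123), and r was 0.88 without the 2 animals farthest from the median of Pdyn. Over the 6 WT animals r was 0.98 (exact permutation p = 0.00278, adjusted 0.00417) with a rho of 0.94 (exact permutation p = 0.0167, adjusted 0.0250), and r was 0.96 without the 2 farthest. The ratio of Penk to Pdyn in FPKM, chosen after the values were seen, was 28.6 ± 4.30 in Q140 and 28.6 ± 2.57 in WT (SD, n = 6 each, exact permutation p = 0.929, two-sided).

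Striatal projection neurons express both precursors at high level, and the striatum lies close to the piriform cortex. The mean of the 22 striatal markers, which leaves out the opioid genes, moved with both precursors. On the centred log2 scale it was 0.23, 0.47, 0.19, 0.19, -0.44 and -0.60 in Q140 animals 1 to 6, and 0.20, 0.87, 0.17, -0.44, 0.94 and -1.78 in WT animals 1 to 6. WT 6 therefore had the least striatal signal, and WT 2 and WT 5, the animals with the most Penk, had the most. None of the 22 markers passed between the genotypes, and their median log2 fold change was -0.27. The most abundant of them, Ppp1r1b, a dopamine-regulated phosphatase inhibitor, had 315 ± 55.9 CPM in Q140 and 394 ± 151 CPM in WT (SD, n = 6 each).

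Within Q140 the striatal mean followed Penk with r = 0.98 (exact permutation p = 0.0167, adjusted 0.0167; rho = 0.71, adjusted 0.136) and Pdyn with r = 0.97 (exact permutation p = 0.00278, adjusted 0.00417; rho = 0.94, adjusted 0.0250). Within WT it followed Penk with r = 0.94 (exact permutation p = 0.00139, the smallest that 6 animals allow, adjusted 0.00417; rho = 1, adjusted 0.0167) and Pdyn with r = 0.95 (exact permutation p = 0.00278, adjusted 0.00417; rho = 0.94, adjusted 0.0250). Without the 2 animals farthest from the median striatal mean, r stayed between 0.90 and 0.99 in the 4 relations. In bulk tissue, fewer cells of a type and less RNA per cell cannot be told apart.

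At like striatal means, Penk and Pdyn were lower in Q140. Q140 1, 3 and 4, with striatal means of 0.19 to 0.23, had 144, 152 and 153 CPM of Penk, against 278 and 269 CPM in WT 1 and 3, with means of 0.20 and 0.17. The same Q140 animals had 10.2, 8.57 and 8.89 CPM of Pdyn, against 15.1 and 16.5 CPM in those WT animals. Q140 5 and WT 4 both had a striatal mean of -0.44, and their Penk was 88.2 CPM in Q140 5 and 169 CPM in WT 4. With the striatal mean as a covariate in the edgeR fit, the log2 fold change was -0.97 for Penk (adjusted p = 9.8e-06) and -0.95 for Pdyn (adjusted p = 3.28e-05), and with WT 6 also left out, -0.82 (adjusted p = 2.84e-05) and -0.80 (adjusted p = 0.000147). The striatal markers themselves had a median log2 fold change of -0.27. Whether like striatal means stand for like amounts of striatal tissue was not tested, and neither was the part of striatal tissue in the lower levels. In wells of plate column 8 alone, Penk was at -0.96 (adjusted p = 0.000525) and Pdyn at -0.92 (adjusted p = 0.00295). In column 9 alone, with 2 Q140 and 3 WT animals, Penk was at -1.63 (adjusted p = 0.227) and Pdyn at -1.75 (adjusted p = 0.258).

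**Figure D5:**
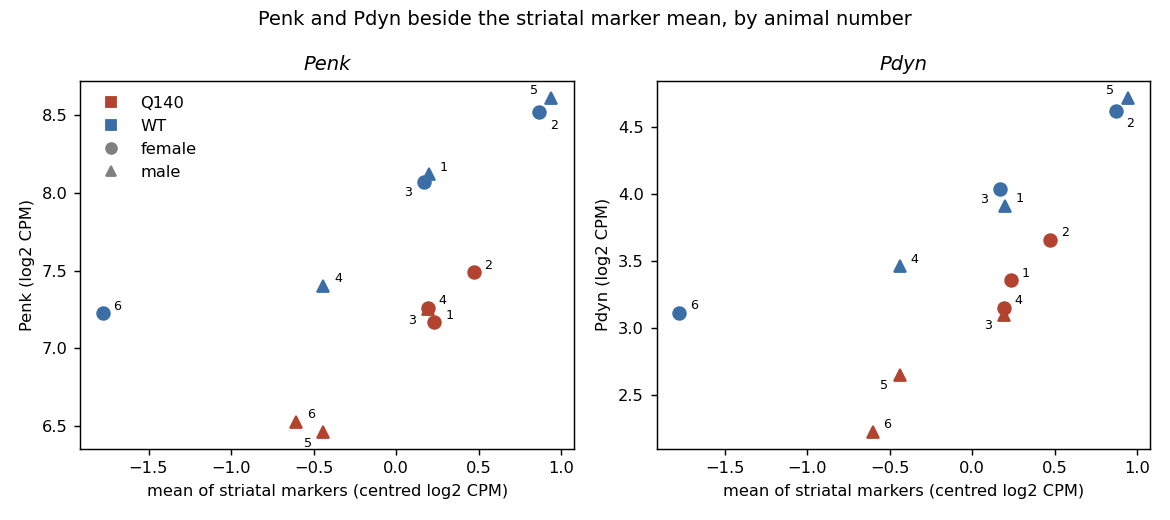
Log2 CPM of Penk (left) and Pdyn (right) against the mean of 22 striatal markers in centred log2 CPM, with 1 numbered point per animal. Both precursors increase with the striatal mean in each genotype, and Q140 animals lie below the WT animals with a like striatal mean, such as Q140 5 and WT 4 at -0.44.

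Other cell types were measured beside the opioid genes. Excitatory neuron markers were lower in Q140 for 6 of 14 and interneuron markers for 4 of 17 tested, and none of either list was higher. Over all tested genes 6.69% were lower and 4.5% higher. The summed levels of both lists did not overlap between the genotypes (interneurons 887 to 1060 CPM in Q140 and 1084 to 1241 CPM in WT). Of all tested genes taken singly, 4.59% did not overlap. Their means on the centred log2 scale, in which each marker counts equally, did overlap: excitatory markers were at -0.20 to -0.04 in Q140 and -0.12 to 0.36 in WT, and interneuron markers at -0.22 to 0.06 in Q140 and -0.0029 to 0.30 in WT. Gad2, on the interneuron list, followed Pdyn from animal to animal (r = 0.96, described below), and the part of striatal tissue in these lists was not tested. The part of these cell types in the lower opioid levels was not tested either.

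Of the non-neuronal lists, oligodendrocyte markers were higher in Q140 for 4 of 10 (median log2 fold change 0.18), microglial markers for 1 of 10 (0.15) and endothelial markers for 1 of 10 (0.18). Astrocyte markers were lower for 1 of 10 (0.04), and none of 10 meningeal markers passed (0.47). Over all tested genes 6.69% were lower and 4.5% higher, 11.2% in either direction, so a count of 1 of 10 is near that share. Of the remaining neuronal lists, 1 of 5 tested dentate granule cell markers was higher (-0.06) and 1 of 7 claustrum and endopiriform markers was lower (-0.26). Markers of hypothalamic peptide neurons, which express Pomc and Pdyn, summed to 5.31 to 7.79 CPM in Q140 and 4.63 to 7.33 CPM in WT, and only Tbx3 and Gnrh1 of the 12 were abundant enough to be tested. Of 10 pituitary markers, 6 were at 0 reads in every animal, among them the hormone genes Gh and Prl. Pcsk1, a convertase that neurons also express, made up nearly all of the pituitary sum, with 27.4 ± 9.12 CPM in Q140 and 25.5 ± 3.80 CPM in WT (SD, n = 6 each).

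Genes that process the precursors were mostly not called. Of 15 genes for processing and dense-core vesicles, 2 were lower, 1 was higher and 12 did not pass, with a median log2 fold change of -0.0011. Over all tested genes the shares were 6.69% lower and 4.5% higher. Pcsk2, the convertase that cuts enkephalin and dynorphin precursors at paired basic residues, fell to 246 ± 29.6 CPM in Q140, against 331 ± 29.0 CPM in WT (log2 fold change -0.42, edgeR adjusted p = 0.00363). Scg5, the chaperone that Pcsk2 needs, rose to 143 ± 13.0 CPM in Q140, against 122 ± 4.74 CPM in WT (0.23, edgeR adjusted p = 0.0169). Scg5 did not pass in plate column 8 alone. Chgb, a granin of dense-core vesicles, fell to 650 ± 58.4 CPM in Q140, against 874 ± 86.3 CPM in WT (-0.43, edgeR adjusted p = 0.0025; SD, n = 6 each). Of 10 peptidases that break opioid peptides down, 1 rose and 9 did not pass, with a median of 0.10, a count near the 11.2% called among all tested genes in either direction. The 1 was the aminopeptidase Rnpep, with 47.3 ± 3.94 CPM in Q140 and 37.9 ± 0.916 CPM in WT (0.32, edgeR adjusted p = 0.0012).

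Of 36 genes of receptor signalling and desensitization, 7 were lower, 3 were higher and 26 did not pass, with a median log2 fold change of -0.12, beside 6.69% lower, 4.5% higher and a median of 0.0045 over all tested genes. Kcnj9, a subunit of the inward-rectifier potassium channels that opioid receptors open, fell to 88.7 ± 9.56 CPM in Q140, against 127 ± 16.4 CPM in WT (-0.51, edgeR adjusted p = 0.00244). Rgs14 and Rgs7, which speed the shut-off of inhibitory G proteins, also fell. Rgs14 had 64.0 ± 5.56 CPM in Q140 and 92.4 ± 6.61 CPM in WT (-0.53, edgeR adjusted p = 0.000112), and Rgs7 had 93.1 ± 6.34 CPM in Q140 and 121 ± 3.37 CPM in WT (-0.38, edgeR adjusted p = 0.000239). Rtp4, a chaperone that helps opioid receptors reach the cell surface and is also induced by interferon, rose to 2.67 ± 0.436 CPM in Q140, against 1.79 ± 0.243 CPM in WT (0.58, edgeR adjusted p = 0.0156; SD, n = 6 each). Rtp4 did not pass in plate column 8 alone or with WT 3 and 6 left out.

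Of 4 genes for atypical opioid binding proteins, 1 was higher and the other 3 did not pass, beside 4.5% higher over all tested genes. The 1 was Ogfr, the opioid growth factor receptor, which rose by 0.20 on the log2 scale (37.9 ± 2.13 CPM in Q140 and 32.9 ± 1.72 CPM in WT, edgeR adjusted p = 0.0188). Ogfr did not pass in plate column 8 alone, without Q140 2, or with WT 3 and 6 left out. Of 12 transcription factors known to act on the Penk, Pdyn or Oprm1 promoters, 3 were lower, beside 6.69% of all tested genes, and 9 did not pass, with a median of -0.05. Kcnip3, the calcium-regulated repressor of Pdyn also called DREAM, fell to 173 ± 8.87 CPM in Q140, against 201 ± 12.8 CPM in WT (-0.22, edgeR adjusted p = 0.00987). The AP-1 subunits Jun (-0.40, edgeR adjusted p = 0.0268) and Junb (-0.42, edgeR adjusted p = 0.0402) fell as well, and of the 12 fits that leave out 1 animal, 5 kept the call for Jun and 4 for Junb.

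Of 21 other neuropeptide precursors, 14 were tested, 1 was lower, near the 6.69% of all tested genes, and 13 did not pass, with a median log2 fold change of -0.34. Sst, the somatostatin precursor of a class of interneurons, fell to 57.7 ± 11.1 CPM in Q140, against 98.7 ± 26.2 CPM in WT (SD, n = 6 each; log2 fold change -0.76, edgeR adjusted p = 0.00997). The lists overlap in part: Adcy5 and Rgs9 are also striatal markers, and Sst is also an interneuron marker.

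To describe which genes had the animal-to-animal pattern of each opioid gene, 12245 genes with a mean of at least 5 CPM were ranked by Pearson's r of log2 CPM over the 12 animals after the genotype means were removed. For Penk the 5 closest were Rasd2 (r = 0.98), Cacna2d2 (0.97), Adcy5 (0.97), Rem2 (0.97) and Chn2 (0.96). For Pdyn they were Htr1b (0.98), Adcy5 (0.97), Rasd2 (0.96), Gad2 (0.96) and Sv2c (0.96). Rasd2, a striatum-enriched GTPase, and Adcy5, the main striatal adenylyl cyclase, were in both lists and among the striatal markers. None of these 8 genes passed between the genotypes: Rasd2 had a log2 fold change of -0.30 (edgeR adjusted p = 0.373) and Adcy5 of -0.13 (edgeR adjusted p = 0.641).

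The other opioid genes had different neighbours. Pnoc was closest to Amacr (r = 0.92), Klhdc2 (0.91) and Ankrd46 (0.89), and Oprk1 to Synpr (0.90), Olfm3 (0.90) and 6530402F18Rik (0.89). Oprd1 was closest to Gm37711 (0.95), Lpl (0.89) and Caln1 (0.88), and Oprl1 to Cib2 (0.94), Adrbk2 (0.91), a receptor kinase that desensitizes G protein-coupled receptors, and 2700081O15Rik (0.91). Pomc was closest to Sap18b (0.96), Gm6180 (0.87) and F8a (0.87), and Oprm1 to RP23-114B10.6 (0.89), Cnot7 (0.87) and Prdm10 (0.87), both from few reads of the opioid gene. Among the opioid genes themselves, Penk and Pdyn had r = 0.96, and Oprl1 ran opposite to both, with r = -0.80 to Penk and -0.82 to Pdyn. All of these values share the same 12 libraries and their scaling.

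Promoter windows, 250 bases before to 50 bases after a transcription start, were available from RefSeq (GRCm38.p6) for 5 of the genes, Pdyn, Pomc, Oprm1, Oprd1 and Oprl1, with 10 windows in all. Penk, Pnoc and Oprk1 had no match. The 10 windows are not all separate: the Oprm1 windows at 6788320 to 6788619 and at 6788326 to 6788625 on chromosome 10 overlap almost fully. On both strands, none of the 10 windows held the short cyclic AMP response site TGACG (20.8% of the 32851 promoters in the table), its full palindrome TGACGTCA, which contains the short site (1.79%), the variant TGCGTCA (2.12%) or the AP-1 site TGANTCA (7.81%). The TATA sequence TATAAA (13.6%) stood once in the Pomc window and once in 1 Oprl1 window.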

How the data were processed

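The 8 opioid genes and the lists of related genes and cell type markers were chosen with earlier results of these data known. Per the labels' protocols, RNA extraction used Qiagen RNeasy and library preparation used a stranded Illumina TruSeq kit. Each library is 1 animal. The authors deposited a table of raw counts, whole numbers of reads per gene with no normalization. Tools listed in the submitters' processing notes were HTSeq 0.12.3, SAMtools 1.10 and STAR 2.7.5c, and the builds were mm10 and GRCm38. The strand setting of the counting is not given in the sources used here, and neither is the annotation release. The authors also deposited FPKM, which divide the counts by gene length and by the column total, as the values show.

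Counts were tested in R 4.3.3 with the quasi-likelihood test of edgeR 4.0.16, with TMM size factors and the default expression filter by genotype. Q140 and WT were compared with sex as a covariate, sexes with genotype as a covariate, and effects within and between sexes in a model of the 4 groups over all animals. P-values are two-sided and were adjusted by the Benjamini-Hochberg method across all 17725 genes, with 0.05 as the threshold, and CPM use TMM-scaled library sizes. The scripts were tested on simulated counts with 200 genes changed. Alternatives were DESeq2 1.42.0, limma 3.58.1 (voom, and log2 FPKM with pseudocounts of 0.1 and 1), other size factors and filters, covariates (animal name prefix and number among them), plate columns and each animal left out.

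The striatal mean averages log2 CPM (prior count of 2), centred per gene, over the listed markers. Relations are exact permutation tests over 720 pairings. Genes named from a pathway list are up to 4 with the smallest p among those that passed, or else the 1 with the smallest p, and from the striatal, hypothalamic and pituitary lists the 3 with the highest mean CPM, of which not every one is given. The symbols Gpr52 and Smim32 had no row in the table, and 2 receptor kinases were matched by gene ID. Coordinates and coding sequences came from GENCODE M21 (GRCm38), and promoters from RefSeq (GRCm38.p6). The search for opioid cores used codons, since no protein table was used here.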

Additional observations from a re-analysis of the deposited data

Results flagged for a closer look

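Of 24 sets of values tested for a sample far from the others, 1 stood out, and chance marks about 1 in 20. Oprl1 in WT animal 6 was at 33.2 CPM, while the other WT animals had 27.3 to 29.3 CPM. The same animal was the lowest in the striatal marker mean and the highest in Oprk1, Oprm1 and Oprd1.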

How the results depend on the processing

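With 3 opioid genes called between Q140 and WT, the count was 1 on log2(FPKM + 0.1) and 1 on log2(FPKM + 1), 0 in plate column 9 alone, and 1 to 4 with 1 animal left out (1 without Q140 3, 4 or 6 or WT 2). Within males it was 3 with no filter beyond 1 read, 2 with DESeq2, 1 with limma voom and 0 to 2 with 1 animal left out, and within females 1 with no such filter and 0 to 1 with 1 animal left out, in place of 0. Penk passed in 27 of 30 alternatives, Pdyn in 21 of 30 and Oprm1 in 11 of 29. With WT 3 and 6, the lowest in meningeal and in striatal markers, left out, Penk was at -1.29 (adjusted p = 0.00369), Pdyn at -1.34 (0.00466) and Oprm1 at -0.59 (0.241). The sign of small log2 fold changes turned. In column 9 alone Pomc was at 0.12 and Pnoc at 0.13. In females Oprd1 was at 0.042 with voom and at -0.41 to 3.93e-05 with 1 animal left out, and Oprl1 at -0.045 to 0.10. In males Pnoc was at 0.019 with library totals, 0.016 and 0.011 on the FPKM scales with 0.1 and 1, and -0.12 to 0.067 with 1 animal left out. Male minus female effects turned to -0.23 for Oprm1 and -0.17 for Oprk1 with voom, and ran from -0.27 to 0.59 and from -0.33 to 0.80 with 1 animal left out. Males over females in Pnoc was 0.015 with upper-quartile factors, 0.026 with library totals, 0.012 with voom, 0.021 and 0.015 on the FPKM scales with 0.1 and 1, and -0.053 to 0.022 with 1 animal left out. The cause was not tested.

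Over all tested genes, 1982 were called, 59.8% of them lower in Q140. Library totals gave 2446 (33.6% lower) and the FPKM scales 2321 (32.4%) and 2311 (32.2%). Counts moved to 1139 without Q140 2, 1314 without Q140 3, 1197 without WT 1, 1231 without WT 3, 862 without WT 3 and 6, and 3 in column 9 alone. The interaction, with 0 called by edgeR, had 23 with DESeq2 and 1 with voom. With the number in the animal name as a replicate block, on the 3 Q140 and 2 WT animals named 150 or 161, and with the name prefix as a covariate, 0 opioid genes were called, among 1 and 81 of all tested genes. In the block fit Penk was at -0.62 (adjusted p = 0.634), Pdyn at -0.71 (0.488) and Oprm1 at -0.49 (0.843), and the signs of Pomc at 0.0024, Pnoc at 0.0082 and Oprk1 at 0.062 turned, as did Pnoc at 0.042 with the prefix. The labels do not say what a shared number means. Only pairs across the genotypes were compared: their deviations from the genotype and sex means had r of -0.20, 0.11 and 0.082 across genes. Those means rest on 3 animals each, and whether animals sharing a number are alike was not tested further. The fits with the number and with the prefix, and the fit with the striatal mean and without WT 6, were added after the data were seen.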
